A study of Mus musculus with 12 samples.

Results

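The myostatin and activin system was described here through 10 genes, whose choice rests on their roles in it and uses no measured value, though it was made with earlier results of these data known. They were the ligand genes Mstn, Gdf11, Inhba, Inhbb and Nodal, the follistatin genes Fst and Fstl3, the type II receptor genes Acvr2a and Acvr2b and the type I receptor gene Acvr1b. All probes carrying one of these symbols in the deposited probe table were used, which gave 14 probes among 56605, for 10 of 27306 genes with a symbol. Of these, 11 probes for 9 genes passed the filter on dim signals and were tested, and the 3 others were one probe each of Mstn, Acvr2a and Acvr2b.

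RNA came from C2C12, an immortal myoblast line of C3H mice that stops dividing and fuses into myotubes when serum is lowered. The cells of all groups were grown in Dulbecco's modified Eagle medium with fetal bovine serum and transfected with siControl or with siBach1, a single siRNA against Bach1, the haem-binding transcriptional repressor that the study was about. At confluence, the day after transfection, the medium was replaced by one with 2% horse serum, and RNA was taken at day 0 (without induced differentiation) or day 2. Each of the 4 conditions had 3 replicates, which gave 12 one-colour Agilent mouse arrays (Cyanine 3). The labels do not say that replicates came from separate cultures, so p-values measure only the spread between these samples, which may be technical. Replicates 1 and 2 lay on one slide and replicate 3 on another. On both slides a column of positions held a single condition, so that condition and position cannot be told apart. The question was how Bach1 silencing and induced differentiation changed the RNA of these genes.

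Activins, myostatin and their relatives are secreted dimers of the TGF-beta family. They bind a type II receptor (Acvr2a or Acvr2b), which phosphorylates a type I receptor such as Acvr1b, and this in turn phosphorylates Smad2 and Smad3, which enter the nucleus with Smad4. Follistatin and follistatin-like 3 bind the ligands outside the cell and keep them from the receptors. In skeletal muscle, myostatin is known as the main brake on growth, and follistatin as its antagonist.

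The sequences just upstream of Inhbb, Gdf11 and Acvr2a are shown because these were the members with a probe that passed the test between siBach1 and siControl. They are the 250 bases before the annotated start, written in the direction of the gene, from RefSeq on GRCm38.p6: Inhbb at chr1:119422249-119422498 on the minus strand, Gdf11 at chr10:128891719-128891968 on the minus strand and Acvr2a at chr2:48813859-48814108 on the plus strand. Capitals mark the E-box CAGCTG, the kind of site that myogenic factors such as MyoD bind.
Inhbb: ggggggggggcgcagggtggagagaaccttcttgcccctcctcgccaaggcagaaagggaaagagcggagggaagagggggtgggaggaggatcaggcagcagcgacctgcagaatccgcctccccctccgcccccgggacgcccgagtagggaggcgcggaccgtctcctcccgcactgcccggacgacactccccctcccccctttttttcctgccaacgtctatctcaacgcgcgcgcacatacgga
Gdf11: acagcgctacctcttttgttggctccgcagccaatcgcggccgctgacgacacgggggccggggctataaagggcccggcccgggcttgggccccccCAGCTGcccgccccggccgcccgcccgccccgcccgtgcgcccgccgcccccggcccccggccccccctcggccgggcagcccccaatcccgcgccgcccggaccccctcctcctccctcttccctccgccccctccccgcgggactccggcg
Acvr2a: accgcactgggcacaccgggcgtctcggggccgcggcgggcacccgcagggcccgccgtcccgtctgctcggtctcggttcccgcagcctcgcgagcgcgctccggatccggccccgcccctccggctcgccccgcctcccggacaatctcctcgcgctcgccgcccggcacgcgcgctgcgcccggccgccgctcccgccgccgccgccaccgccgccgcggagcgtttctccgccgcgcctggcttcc
All were rich in G and C, at 68%, 81.2% and 82%, against a median of 52.4% over 32851 mouse promoters of the same length. They held 21, 33 and 49 CpG pairs, where the median was 6. Of the 9 member promoters with an entry, which leaves out Fst, only that of Gdf11 held CAGCTG, with its first base 153 bases before the start (position -153), and 13% of all promoters held it. The antioxidant response element TGACNNNGC, a kind of site that Bach1 binds with small Maf proteins, was found in 0 of the 9 and in 10.2% of all promoters. The AP-1 site TGAGTCA, which forms the core of the longer Maf recognition element, was in 0 of the 9 and in 4.46% of all. Both strands were searched, and a match or its lack in these windows says nothing about binding.

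The knockdown was seen on every array. Bach1 (A_55_P2014337) was 3.42-fold lower with siBach1 at day 0 and 3.91-fold lower at day 2 (limma adjusted p = 1.2e-05 and 1.4e-05). Between 26921 and 33313 probes per array were well above background by the scanner's rule, the 75th percentile of the signal ran from 325.5 to 534.4, and no spot was saturated. Each member probe had 1 spot per array. Values below are log2 levels relative to the array's own 75th percentile unless called signals, and a level of one probe says nothing about that of another. Precision is limited by the small number of arrays.

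The members that passed the test with silencing were all higher, and their number depended on whether the replicate number was fitted as a block. At day 0, 1 of the 11 tested probes passed at an adjusted p under 0.05, against 17.1% of all 29664 tested probes, and it was a probe of the receptor gene Acvr2a. At day 2, 2 of 11 passed, the ligand genes Inhbb and Gdf11, against 12% of all probes. Counting only higher probes, the shares over all probes were 8.8% at day 0 and 5.75% at day 2. With the replicate number as a block, 4 of 11 passed at day 0 and 5 of 11 at day 2, all higher. The shares of higher probes over all probes were then 16.2% and 9.78%. None of the 11 tested probes reached a 2-fold change with silencing at either day, where 2.79% and 2.17% of all probes both passed the test and reached it. From day 0 to day 2 in siControl cells, 5 of 11 passed (Fst, Inhbb, a probe of Acvr2a, one of Acvr1b and Gdf11), against 53.4% of all probes, and Fst had the largest change of them. The plot of levels by array gives the values behind these counts.

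**Figure D1:**
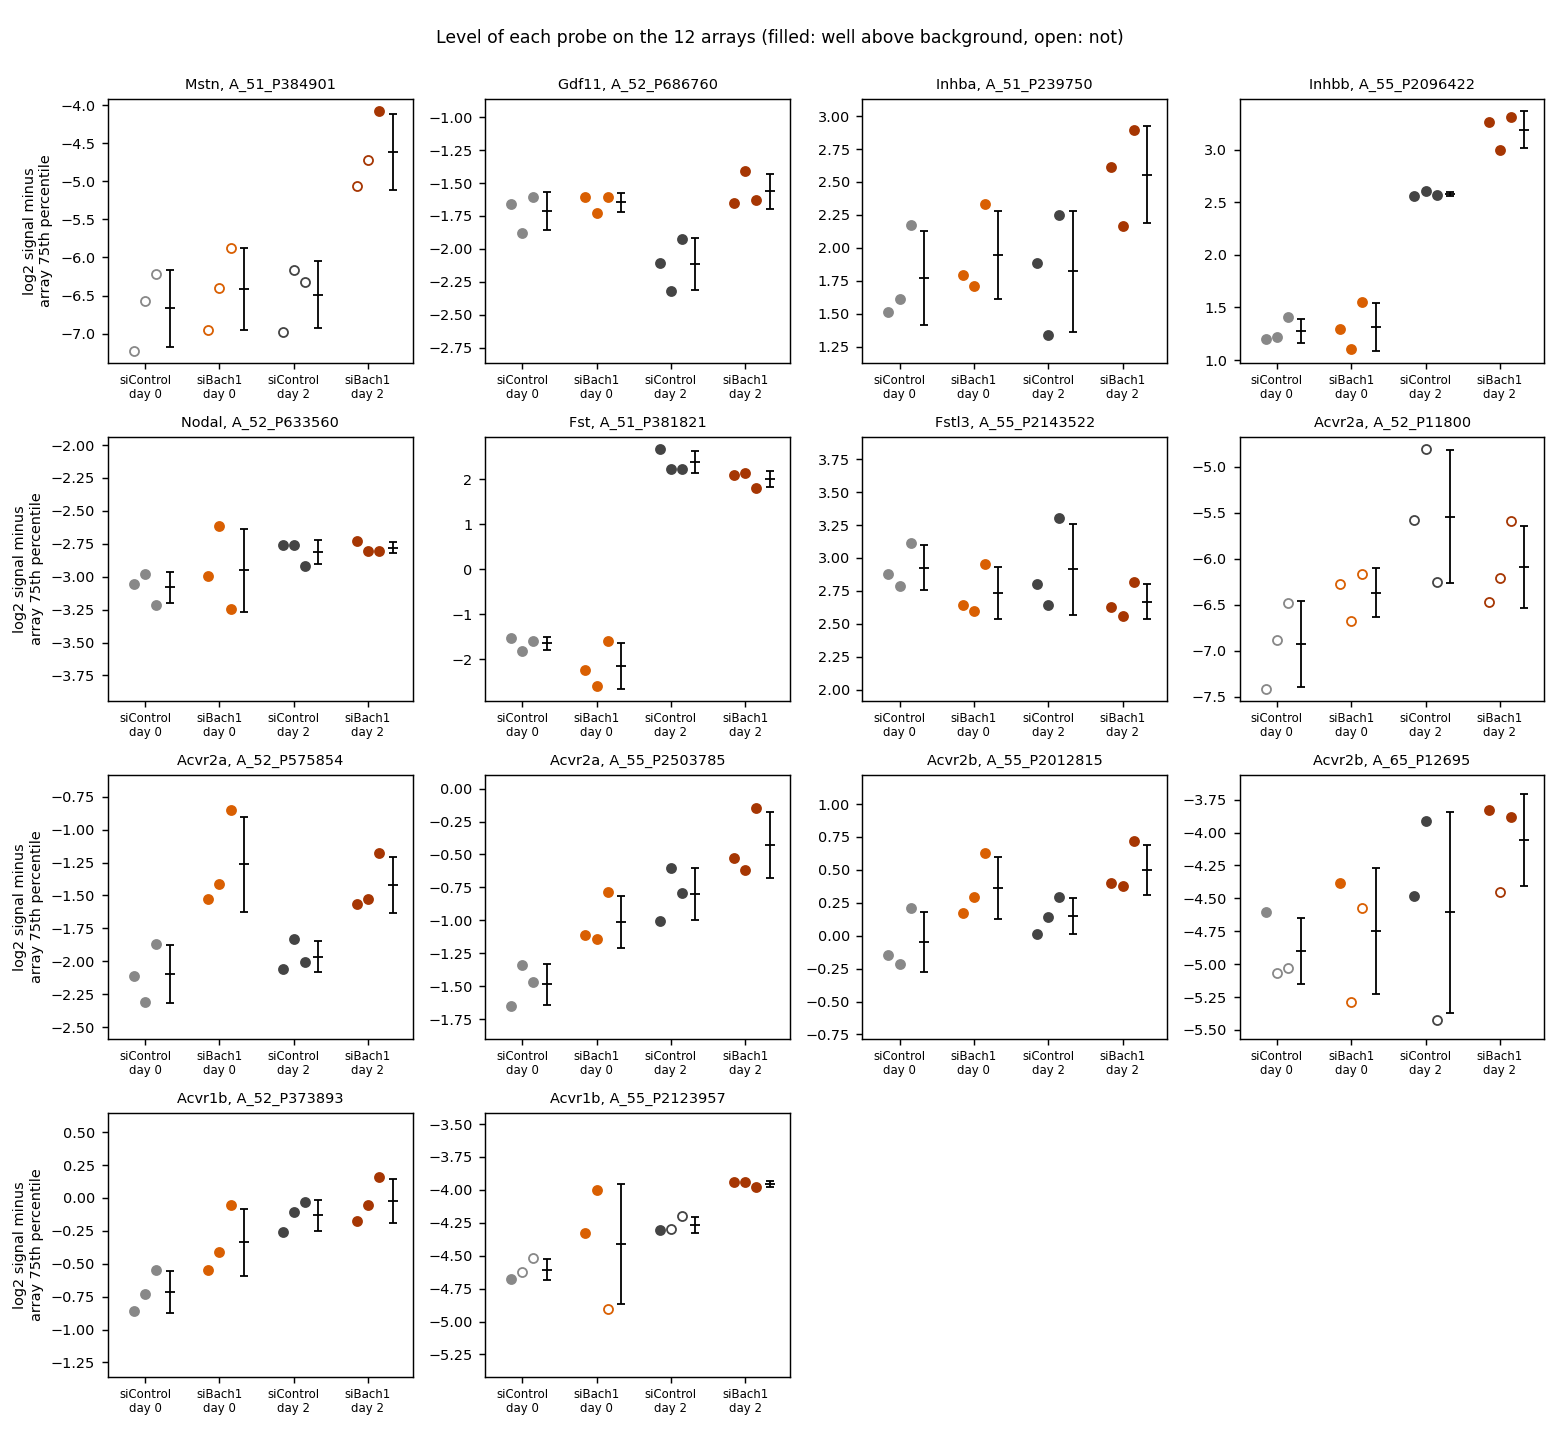
Level of each of the 14 probes on the 12 arrays, 1 panel per probe, as log2 signal minus the array's 75th percentile, by condition. Each point is 1 array, filled where the probe was well above background and open where it was not, the bars give the mean and SD of 3 arrays, and each panel has its own vertical scale. Fst and Inhbb stood higher at day 2 than at day 0 on all arrays, and Mstn was filled on 1 array only.

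Among the ligands, Mstn (A_51_P384901), which encodes myostatin, was at the limit of the array. Its signal was 3.58, 5.30 and 5.42 in siControl cells at day 0 and 3.53, 5.46 and 5.55 in siBach1 cells. After 2 days it was 2.83, 5.41 and 4.32 with siControl and 12.9, 16.0 and 24.1 with siBach1. The siBach1 arrays of day 2 were thus above all 9 others, but only replicate 3 of them was well above background, and the probe was not tested. The lowest signal of any probe well above background lay between 11 and 22.6 on the 12 arrays, so the other conditions have only an upper bound. Against that bound the siBach1 mean at day 2 was not higher, with a log2 difference of -0.10 from siControl at day 2 and -0.24 from siBach1 at day 0, and no fold change is given. The measured means at day 2 were -4.62 with siBach1 and -6.49 with siControl, a log2 difference of 1.87. If dim probes were tested as well, this difference passed (limma adjusted p = 0.0374, and 0.00256 with the replicate number as a block). The measured rise from day 0 to day 2 with siBach1 had an adjusted p of 0.00538 there. The change of the silencing effect from day 0 to day 2 had one of 0.308 in that test, and 0.0437 with the replicate number as a block.

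Inhbb (A_55_P2096422), which encodes the beta-B chain of activin B, stood at 1.20, 1.22 and 1.41 with siControl at day 0 and at 1.29, 1.10 and 1.56 with siBach1. At day 2 the values were 2.56, 2.61 and 2.57 with siControl and 3.27, 2.99 and 3.32 with siBach1. The day 0 conditions overlapped, and the order was then siControl at day 2 and, above it, siBach1 at day 2, each step without overlap. Inhbb rose 2.47-fold from day 0 to day 2 with siControl (log2 1.30, standard error 0.13, limma adjusted p = 1.2e-05) and 3.67-fold with siBach1 (log2 1.87, adjusted p = 1.1e-06). At day 2 it was 1.53-fold higher with siBach1 (log2 0.61, standard error 0.13, adjusted p = 0.0132). At day 0 the silencing difference was 0.04 with a 95% interval of -0.24 to 0.32.
The silencing effect on Inhbb was larger at day 2 than at day 0 by 0.57 on the log2 scale (standard error 0.18), which missed the threshold (adjusted p = 0.0994). It was 0.61, 0.50 and 0.60 within replicates 1, 2 and 3, and passed with the replicate number as a block (adjusted p = 0.0339). The day 2 call was lost without siBach1 day 2 replicate 1 (log2 0.58, adjusted p = 0.0546) and when dim probes were tested too (adjusted p = 0.0616).

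Gdf11 (A_52_P686760), a close relative of myostatin, stood at -1.66, -1.88 and -1.60 with siControl at day 0 and at -1.61, -1.73 and -1.60 with siBach1. The day 2 values were -2.11, -2.32 and -1.92 with siControl and -1.65, -1.41 and -1.63 with siBach1. The siControl arrays of day 2 were the low ones, below every array of the other conditions, which overlapped among themselves. Gdf11 fell from day 0 to day 2 with siControl by 0.40 on the log2 scale (standard error 0.12, limma adjusted p = 0.0161), and with siBach1 the change was 0.08 (adjusted p = 0.589). Gdf11 was 1.47-fold higher at day 2 with siBach1 than with siControl (log2 0.55, standard error 0.12, adjusted p = 0.0162). Between the days the silencing effect differed by 0.49, which missed the threshold (adjusted p = 0.130, and 0.0801 with the replicate block).
The day 2 call for Gdf11 was lost without siBach1 day 2 replicate 2 (0.48, adjusted p = 0.0578), in a fit of the day 2 arrays alone (adjusted p = 0.0641), when dim probes were tested too (0.0754) and under a normexp background correction (0.27, adjusted p = 0.0901). Its fall with siControl was lost without siControl day 0 replicate 1, day 0 replicate 3 or day 2 replicate 2 (adjusted p = 0.0528, 0.0586 and 0.0629), with dim probes tested (0.0584), by the methods' t-test with Benjamini-Hochberg adjustment (0.0864) and under normexp (-0.19, adjusted p = 0.104).

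Inhba (A_51_P239750), which encodes the beta-A chain of activin A, varied with the replicate number. The values were 1.51, 1.61 and 2.18 with siControl at day 0, 1.80, 1.71 and 2.33 with siBach1 at day 0, 1.88, 1.33 and 2.25 with siControl at day 2 and 2.61, 2.16 and 2.89 with siBach1 at day 2. Replicate 3 was the highest in every condition, and all 4 conditions overlapped with their neighbours. Within each replicate number, siBach1 was above siControl at day 2, by 0.73, 0.83 and 0.65. The mean difference of 0.73 (standard error 0.28) missed the threshold without a block (limma adjusted p = 0.124) and passed with the replicate block (adjusted p = 0.00544). Likewise the change from day 0 to day 2 with siBach1 was 0.61, with an adjusted p of 0.0926 and, blocked, of 0.00216. It also passed without siBach1 day 0 replicate 3 or day 2 replicate 2 (0.80 each, adjusted p = 0.0461 and 0.0491). With siControl that change was 0.05 (adjusted p = 0.892). Between the siRNAs the change with the days differed by 0.56, which missed the threshold (limma adjusted p = 0.478, and 0.0658 with the replicate block).

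Nodal (A_52_P633560), a ligand best known from the early embryo, was dim but well above background on all arrays, with signals of 34.4 to 75.3. Its levels lay between -3.24 and -2.61. It passed in no comparison, and its silencing difference was 0.13 at day 0 (95% interval -0.18 to 0.44) and 0.03 at day 2 (-0.28 to 0.35). The siControl arrays of day 2 were all above those of day 0, by 0.27 in the mean (adjusted p = 0.136). Without siBach1 day 0 replicate 2 this change passed (adjusted p = 0.0461), as did that with siBach1 (0.34, adjusted p = 0.0290).

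Of the antagonists, Fst (A_51_P381821), which encodes follistatin, was the member that moved most. It stood at -1.54, -1.81 and -1.59 with siControl at day 0 and at -2.23, -2.60 and -1.60 with siBach1. By day 2 it had reached 2.67, 2.24 and 2.24 with siControl and 2.10, 2.15 and 1.81 with siBach1. Every array of day 2 was far above every array of day 0 with either siRNA. Fst rose 16.3-fold with siControl (log2 4.03, standard error 0.23, limma adjusted p = 3.5e-07) and 17.9-fold with siBach1 (log2 4.16, adjusted p = 3.0e-07). The difference between these rises was 0.14, with a 95% interval of -0.59 to 0.86.
Upon silencing, Fst was not called at either day. The difference was -0.50 at day 0 (adjusted p = 0.168), and its 3 siBach1 arrays did not behave alike: within replicates 1, 2 and 3 it was -0.70, -0.80 and -0.01. Without siBach1 day 0 replicate 3 the value was -0.78 and passed (adjusted p = 0.0219). At day 2 the difference was -0.37 (adjusted p = 0.348), and the siBach1 arrays lay below all siControl arrays, the one tested member to do so.

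Fstl3 (A_55_P2143522), follistatin-like 3, was bright and steady, with levels of 2.56 to 3.30 over the 12 arrays and overlap between all conditions. It passed in no comparison. Its silencing differences were -0.19 at day 0 (adjusted p = 0.506) and -0.24 at day 2 (adjusted p = 0.416), with 95% intervals of -0.58 to 0.20 and -0.63 to 0.14.

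Acvr2a, a type II receptor for activins, had 2 tested probes. The probe A_52_P575854 stood at -2.11, -2.31 and -1.87 with siControl at day 0 and at -1.53, -1.41 and -0.85 with siBach1. On the day 2 arrays it stood at -2.06, -1.83 and -2.01 with siControl and at -1.56, -1.53 and -1.18 with siBach1. The siBach1 arrays were above the siControl arrays at both days, and the days overlapped within each siRNA. At day 0 the probe was 1.78-fold higher with siBach1 (log2 0.83, standard error 0.19, limma adjusted p = 0.0127). At day 2 the difference was 0.54, with an adjusted p of 0.0888 and, with the replicate block, of 0.0286, and it passed without siBach1 day 0 replicate 3 (0.0349). The day 0 call was lost without siControl day 0 replicate 2 (0.73, adjusted p = 0.0548), and was lost in a fit of the day 0 arrays alone (adjusted p = 0.0562). By the methods' t-test with Benjamini-Hochberg adjustment this call and those of Inhbb and Gdf11 at day 2 were not made (adjusted p = 0.125, 0.0648 and 0.118).
The probe A_55_P2503785 stood at -1.65, -1.34 and -1.47 with siControl at day 0 and at -1.11, -1.15 and -0.79 with siBach1. At day 2 it stood at -1.01, -0.60 and -0.79 with siControl and at -0.53, -0.62 and -0.15 with siBach1. Here the day 2 arrays were above those of day 0 with each siRNA, and siBach1 was above siControl without overlap at day 0 but not at day 2. It rose from day 0 to day 2 by 0.69 with siControl (adjusted p = 0.00408) and by 0.58 with siBach1 (adjusted p = 0.00948), where the other probe gave 0.13 and -0.16 (adjusted p = 0.584 and 0.509). The siBach1 call was lost by the methods' t-test with Benjamini-Hochberg adjustment (adjusted p = 0.0662). The silencing difference was 0.47 at day 0 (adjusted p = 0.0700, blocked 0.0316, and 0.0472 without siBach1 day 2 replicate 3) and 0.37 at day 2 (adjusted p = 0.165). The probes thus shared the sign of the silencing difference and not the change with the days, and the difference between probes was not tested. The remaining probe, A_52_P11800, which carries a cDNA clone in place of a RefSeq accession, was well above background on 0 of the 12 arrays and has no level here.

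Acvr2b, the other type II receptor and the main one for myostatin, had 1 tested probe, A_55_P2012815. It stood at -0.15, -0.22 and 0.21 with siControl at day 0, at 0.17, 0.29 and 0.63 with siBach1 at day 0, at 0.01, 0.14 and 0.29 with siControl at day 2 and at 0.40, 0.38 and 0.72 with siBach1 at day 2. Replicate 3 was the highest in each condition, and siBach1 was above siControl within each replicate number, by 0.32, 0.51 and 0.42 at day 0 and by 0.39, 0.24 and 0.42 at day 2. The groups overlapped at day 0 and not at day 2. The mean differences of 0.41 and 0.35 missed the threshold (limma adjusted p = 0.104 and 0.186) and passed with the replicate block (adjusted p = 0.00431 and 0.0119). From day 0 to day 2 with siControl the change was 0.20 (adjusted p = 0.316, blocked 0.0360). The dim probe A_65_P12695 was well above background on 6 of 12 arrays and on no full group, and was not tested.

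Acvr1b, a type I receptor, rose during differentiation in siControl cells. Its probe A_52_P373893 stood at -0.86, -0.73 and -0.55 with siControl at day 0, at -0.55, -0.41 and -0.05 with siBach1 at day 0, at -0.26, -0.11 and -0.03 with siControl at day 2 and at -0.18, -0.05 and 0.16 with siBach1 at day 2. The siControl arrays of day 0 were the lowest, narrowly so against siBach1 at day 0, and the other conditions overlapped in turn. The rise with siControl was 1.49-fold (log2 0.58, standard error 0.14, limma adjusted p = 0.00612), and with siBach1 the change was 0.31 (adjusted p = 0.0902, blocked 0.00386, and 0.0158 without siBach1 day 0 replicate 3). The silencing difference was 0.38 at day 0 (adjusted p = 0.106, blocked 0.00582) and 0.11 at day 2 (adjusted p = 0.696). Between the siRNAs the change with the days differed by -0.27, which missed the threshold (limma adjusted p = 0.507, blocked 0.105). The probe A_55_P2123957 was near background. It entered the test through siBach1 at day 2, the only condition where all 3 arrays were well above background. It stays among the 11 probes counted, but a call of it is not read as a result. Its values were -3.94, -3.94 and -3.98 with siBach1 at day 2. With siControl at day 2 they were -4.30, -4.29 and -4.20 (difference 0.31, limma adjusted p = 0.307).

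**Figure D2:**
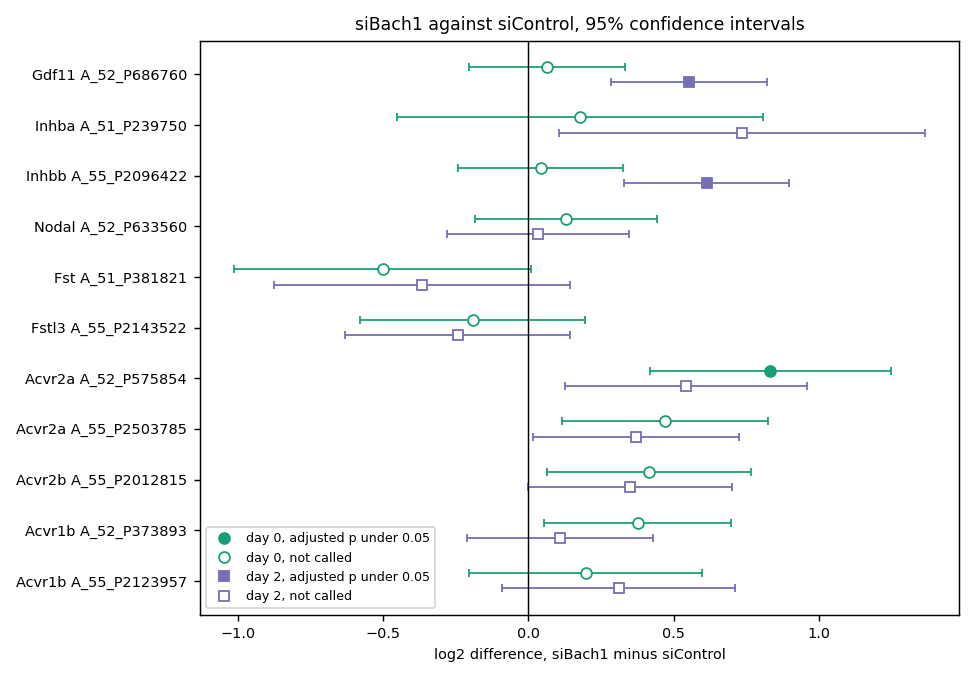
Log2 difference between siBach1 and siControl for the 11 tested probes, at day 0 (circles) and day 2 (squares), with 95% confidence intervals from limma before any adjustment. Filled symbols passed at an adjusted p under 0.05: Acvr2a A_52_P575854 at day 0, and Inhbb and Gdf11 at day 2. The 2 antagonists, Fst and Fstl3, are the only probes left of 0 at both days.

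Taken by role, the silencing differences of the tested ligand and receptor probes were above 0 at both days and those of Fst and Fstl3 below it. Leaving out the dim Acvr1b probe, 8 of 10 probes were above 0 at day 0, where 62.3% of all tested probes were, and 8 of 10 at day 2, where 48.1% were. The median over the 10 probes was 0.15 at day 0 and 0.36 at day 2, beside 0.09 and -0.01 over all tested probes. The signs of Inhba, Gdf11, Inhbb and Nodal at day 0, and of Nodal at day 2, turned when single arrays were left out, so the count rests in part on values near 0. Under quantile normalization Nodal at day 2 was at -0.07, and under normexp at -0.03. The siBach1 and siControl arrays stood fully apart on 3 of 10 probes at day 0 and on 5 of 10 at day 2, as did those of 37.3% and 32.8% of all probes.

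In some of these genes, such as Inhba and Acvr2b, replicate 3 was the highest in every condition, and in others, such as Fst, it was not. The within-replicate plot gives the silencing differences inside each replicate number, where a shift shared by its arrays cancels. With the number as a block, 4 of 11 probes passed at day 0, all higher with siBach1 (both Acvr2a probes, Acvr2b and Acvr1b A_52_P373893), against 27.5% of all probes and 16.2% for higher ones. At day 2, 5 of 11 passed, again all higher (Inhba, Inhbb, Gdf11, Acvr2a A_52_P575854 and Acvr2b), against 21.3% of all probes and 9.78% for higher ones.

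**Figure D3:**
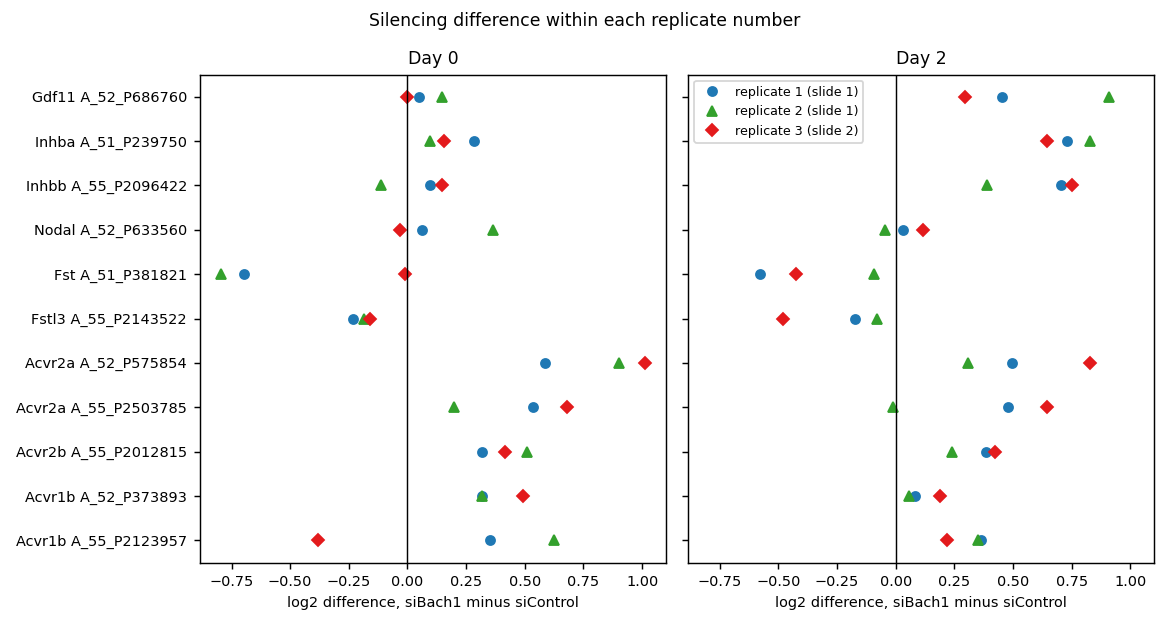
Log2 difference between siBach1 and siControl within each replicate number for the 11 tested probes, at day 0 (left) and day 2 (right). Circles and triangles are replicates 1 and 2 on the first slide and diamonds are replicate 3 on the second. Inhba, Inhbb, Gdf11, Acvr2b, Acvr2a A_52_P575854 and Acvr1b A_52_P373893 lie right of 0 in all replicates at day 2. So does Acvr1b A_55_P2123957, but it entered the test through siBach1 at day 2 alone and is not read as a result. Fst at day 0 is near 0 in replicate 3 alone.

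From day 0 to day 2, 5 of the 11 probes passed with siControl, against 53.4% of all tested probes, and 3 of 11 passed with siBach1, against 56.1%. With siControl these were Fst, Inhbb, Acvr2a A_55_P2503785, Acvr1b A_52_P373893 and, lower, Gdf11. With siBach1 they were Fst, Inhbb and Acvr2a A_55_P2503785. In both, Fst and Inhbb were the 2 that also reached a 2-fold change, where 20% and 20.5% of all probes did. With the replicate block the counts were 6 of 11 against 62.7% and 5 of 11 against 64%, and without siBach1 day 0 replicate 2 or replicate 3 the siBach1 count was 5. The day changes with the 2 siRNAs and the silencing differences share arrays and are not independent of each other. The change of the silencing effect between the days passed for 0 of 11 probes in limma, against 4.59% of all. At an unadjusted p under 0.05 there were 2, Inhbb and Gdf11, against 21.8% of all, and 1, Inhbb, passed with the block, against 13%.

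**Figure D4:**
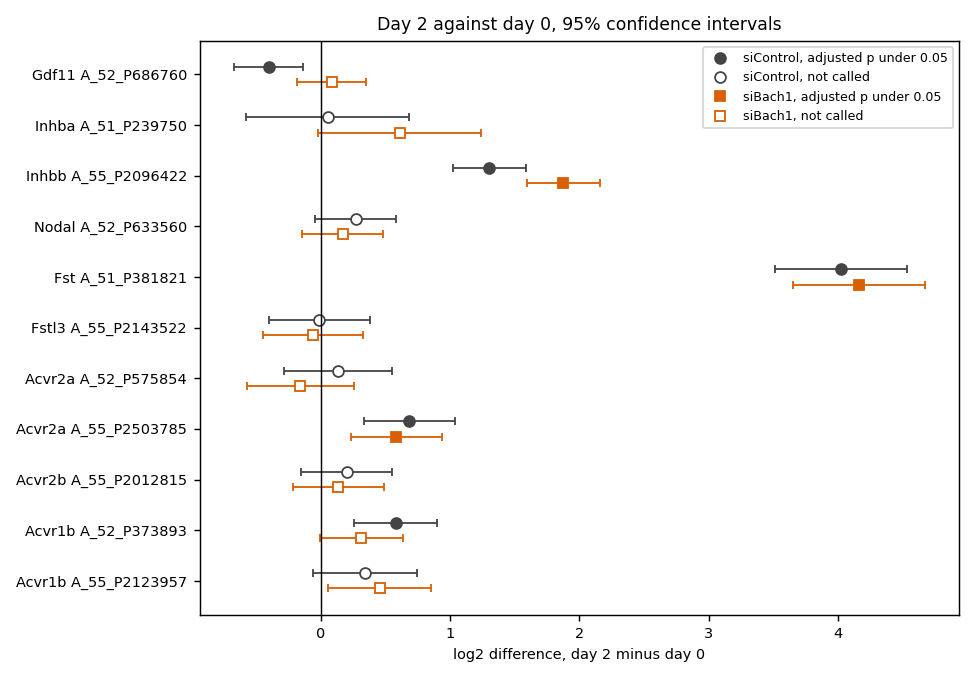
Log2 change from day 0 to day 2 for the 11 tested probes in siControl cells (circles) and siBach1 cells (squares), with 95% confidence intervals from limma before any adjustment. Filled symbols passed at an adjusted p under 0.05. Fst lies near 4 with both siRNAs, Inhbb follows at 1.30 and 1.87, and Gdf11 is filled below 0 with siControl only.

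The other genes of the pathway were taken from a list of 61 genes, 48 of which had at least 1 of 76 tested probes. Between siBach1 and siControl 8 of the 76 probes passed at day 0 (3 higher, 5 lower) and 8 at day 2 (5 higher, 3 lower), which is 10.5% at each day beside 17.1% and 12% of all probes. From day 0 to day 2 with siControl 49 passed (32 higher, 17 lower), which is 64.5% beside 53.4% of all probes. With siBach1 46 passed (29 higher, 17 lower), which is 60.5% beside 56.1%. For silencing the median of the list was 0.11 at day 0 and 0.02 at day 2, beside 0.09 and -0.01 over all tested probes. For the day changes it was 0.38 with siControl and 0.27 with siBach1, beside 0.0034 and -0.07.

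Among other ligands, Gdf1 (A_51_P464300) was lower with siBach1 at day 0 (-0.40, limma adjusted p = 0.0425) and higher at day 2 (0.50, adjusted p = 0.0239). It rose by 3.61 from day 0 to day 2 with siControl (adjusted p = 1.5e-08). Gdf1 is known to be made from a transcript that also carries the ceramide synthase gene Cers1. Its day 0 call was lost in 10 of 12 fits that each left out 1 array, and its day 2 call in 5 of 12.

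Among other receptors, Tgfbr1, the type I receptor for TGF-beta, was lower with siBach1 on probe A_52_P4538, with a log2 difference of -1.16 before induction (standard error 0.09, limma adjusted p = 3.6e-05) and of -0.40 at day 2 (adjusted p = 0.0215). Its other tested probe, A_51_P280137, gave -0.40 at day 0 and was not called (adjusted p = 0.373). Tgfbr3, the co-receptor betaglycan, which also binds inhibin, was higher with siBach1 at day 2 by 0.84 (standard error 0.17, adjusted p = 0.0127).

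Of the extracellular antagonists, Grem1, which binds BMPs, was lower with siBach1 at day 2 by -0.69 (limma adjusted p = 0.0103). The probes of Fstl1 disagreed: A_55_P2143517 was lower at day 0 by -0.31 (adjusted p = 0.0329), while A_55_P2720547 was higher at day 0 by 0.30 (adjusted p = 0.0432) and at day 2 by 0.45 (adjusted p = 0.0110). During differentiation of siControl cells the largest rises on the whole list were those of Dcn, the proteoglycan decorin, at 5.23, Gdf1 at 3.61 and the BMP antagonist Chrd (A_55_P2164689) at 2.51.

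Among Smads and their regulators, Ski, a corepressor of Smads, was higher with siBach1 at day 0 by 0.45 (limma adjusted p = 0.0113), and so was the ubiquitin ligase gene Smurf2 on probe A_55_P2124619 (0.48, adjusted p = 0.0154). The other Smurf2 probe, A_52_P576886, gave 0.06. At day 2 Smad3 passed on probe A_55_P2101001 (0.35, adjusted p = 0.0450) and not on A_52_P352277 (0.26, adjusted p = 0.148), and the call was lost in 8 of 12 fits that each left out 1 array.

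Among genes listed for their response to the TGF-beta family, Ctgf, a matrix protein gene, was lower with siBach1 at day 0 by -1.49 (standard error 0.32, limma adjusted p = 0.0106). At day 2 Pmepa1, which encodes an inhibitor of Smad signalling, was lower by -0.60 (adjusted p = 0.0320). From day 0 to day 2 with siControl the largest falls on the list were those of Id3 at -2.71 and Id2 at -2.53, both inhibitors of bHLH factors. These falls are not read here as a response to activin or myostatin, which was not tested. With 1 array left out at a time, the call was lost in 5 of 12 fits for Pmepa1 and in 4 for Smurf2 and for Tgfbr1 at day 2. The day 0 calls of Fstl1 were lost in 5 and 9 of 12, and its day 2 call without siBach1 day 2 replicate 1 (0.39, adjusted p = 0.0501). Those for Ctgf, Ski, Tgfbr3, Grem1 and Tgfbr1 at day 0 held in all 12. Other settings ended most of these: Ski was lost with dim probes tested (adjusted p = 0.0633) and on the slide of replicates 1 and 2 (0.0763), Tgfbr3 with dim probes tested (0.0516), on that slide (0.0842) and by the methods' t-test with Benjamini-Hochberg adjustment (0.106), Grem1 on that slide (0.0756) and by the t-test (0.0778), and Ctgf by the t-test (0.0653).

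Cell state was read from marker lists in the same arrays. The differentiating muscle list (Myog, Myh3, Ckm, Actc1, Tnnt3 and Tmem8c, 9 probes) had 9 of 9 probes higher at day 2 with each siRNA, with medians of 5.71 for siControl and 5.40 for siBach1. All 9 were called with each siRNA, beside 53.4% of all probes with siControl and 56.1% with siBach1. Its summed signal at day 2 ran from 369514 to 441161 with siControl and from 273321 to 347455 with siBach1. At day 2, 48.1% of all tested probes had a silencing difference above 0. Those of this list were below 0 on all 9 probes, with a median of -0.44. Of these, 3 of 9 were called (Actc1, Myog and Tmem8c), against 12% of all probes. The proliferation list (Mki67, Top2a, Ccnb1 and Cdk1, 10 probes) had 10 of 10 called lower at day 2 with each siRNA, beside the same shares. At day 0, 62.3% of all tested probes had a silencing difference above 0. On this list all 10 were below 0 at both days and 0 were called with silencing. Its summed signal at day 0 ran from 45959 to 55431 with siControl and from 29833 to 41306 with siBach1. These sums, like those of the other lists, were not scaled to the array's 75th percentile. At day 0 that percentile was 534, 505 and 402 with siControl and 438, 461 and 326 with siBach1. On scaled values the median silencing difference of the list at day 0 was -0.20. The myoblast list had 5 tested probes, of Myod1, Cdh15, Des and Pax7. With silencing 1 of them was called per day, against 17.1% and 12% of all probes. Its other gene, Myf5, was well above background on 8 of 12 arrays and was not tested. Mean levels of Myf5 were higher with siBach1, at -2.11 against -3.60 at day 0 and -3.32 against -4.00 at day 2. Before induction the called probe was Cdh15, which was higher with siBach1 (0.45), and 2 of 5 probes were below 0. After 2 days it was Myod1, which was lower (-0.48), and all 5 tested probes were below 0. Pax7 was lower without overlap on both occasions (-0.78 and -1.06) but was not called, the second time narrowly. The differentiation and proliferation lists moved with the days, and in part with silencing, beside Fst, Inhbb, Gdf11 and the receptors, and their part in those results was not tested. In bulk RNA, fewer cells of a type and less RNA per cell cannot be told apart. Of the macrophage list 2 of 5 tested probes, both of Cd68, were called lower with siBach1 at day 0. The share over all probes in either direction was 17.1%. At day 2, 0 were called, against 12% of all probes. Of the endothelial and adipocyte lists (1 and 2 tested probes) 0 were called with silencing. The summed signal of the macrophage list ran from 2823 to 4269.9 with siControl and from 2647 to 4122 with siBach1 at day 0, and from 1699 to 2797 and from 1894 to 3138 at day 2. Both Csf1r probes, 1 of 3 Cd68 probes and 1 of 7 Ptprc probes exceeded background clearly on each of the 12 arrays, while Adgre1, also on this list, did so on none. Of the endothelial markers Cdh5 and Kdr, and of the adipocyte markers Adipoq, were well above background on no array.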

How the data were processed

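RNA of 12 C2C12 samples was measured on one-colour Agilent arrays. The authors deposited, per array, the scanner's spot intensities (background-subtracted processed signal; Feature Extraction 10.7.3.1 in the file headers, 9.1 in the submitters' processing notes) and a probe table with intensities and log2 values that the authors had scaled to the array's 75th percentile and centred on each probe's median in GeneSpring. Control and outlier spots (76 to 110 per array) were removed here, repeated spots averaged, and the 75th percentile subtracted from log2 signals. A probe was kept where some condition had it well above background on 3 of 3 arrays, and kept probes were fitted in limma 3.58.1 (R 4.3.3; files were read with pandas 2.3.3) with 4 groups and no block. P-values were adjusted by Benjamini-Hochberg over 29664 probes, and probes passed under 0.05. The fits were tested on simulated data. Of 14 member probes, 12 carried a RefSeq accession, and all matched their symbol. Replicate numbers paired the arrays: residuals of all 18 same-number pairs correlated at 0.142 to 0.595, against -0.443 to 0.265 for 36 others, and the pairs shared a slide and a row of it. The main fit ignored this pairing, so its spread held shifts shared by a replicate number. Member calls that the replicate block changed are given with the results. Bounds for dim probes used each array's lowest signal well above background. Named pathway genes were those passing in a silencing comparison or in its difference between days, plus the 3 largest rises and 3 largest falls with siControl. Some of them are not reported here. Alternatives were quantile and normexp (offset 50) normalization, the authors' values, other filters, blocks, single slides or groups, a robust prior, the methods' t-test, each array left out in turn, and 1 probe per gene. Members and lists were chosen with earlier results of these data known. Protein sequences were not used here.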

Additional observations from a re-analysis of the deposited data

Results flagged for a closer look

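The silencing effect on 2 pathway genes differed between the days by a test of the difference itself. For Gdf1 (A_51_P464300) the effect at day 2 minus that at day 0 was 0.90 on the log2 scale (standard error 0.17, limma adjusted p = 0.0188). Its means were -1.43 with siControl and -1.84 with siBach1 at day 0, and 2.18 and 2.67 at day 2. For Tgfbr1 (A_52_P4538) the difference was 0.77 (standard error 0.13, adjusted p = 0.0147), with means of 0.92 and -0.24 at day 0 and of 0.68 and 0.28 at day 2. Both calls were lost when dim probes were tested too (adjusted p = 0.107 for Gdf1 and 0.104 for Tgfbr1) and on the slide of replicates 1 and 2 alone (0.10 and 0.0856). That for Gdf1 was also lost without siControl day 0 replicate 1 (0.86, adjusted p = 0.0520) or siBach1 day 2 replicate 1 (0.90, adjusted p = 0.0521).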

How the results depend on the processing

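Of the single values recomputed under the alternatives, 998 kept their direction and side of the threshold, 44 came to pass, 81 no longer passed and 32 turned their direction. All values that turned were uncalled. With single arrays left out, the day 0 silencing difference ran from -0.018 to 0.12 for Gdf11, -0.014 to 0.38 for Inhba, -0.077 to 0.15 for Inhbb, -0.037 to 0.28 for Nodal and -0.0086 to 0.44 for Acvr1b A_55_P2123957, and that of day 2 from -0.019 to 0.059 for Nodal. The siControl day change ran from -0.16 to 0.30 for Inhba and -0.20 to 0.13 for Fstl3, and the siBach1 one from -0.14 to 0.050 for Fstl3 and -0.29 to 0.048 for Acvr2a A_52_P575854. The change of the silencing effect between days ran from -0.24 to 0.070 for Nodal, -0.093 to 0.41 for Fst, -0.19 to 0.14 for Fstl3, -0.24 to 0.013 for Acvr2a A_55_P2503785, -0.20 to 0.066 for Acvr2b A_55_P2012815 and -0.13 to 0.32 for Acvr1b A_55_P2123957. Under quantile normalization the values that turned were Nodal at day 2 (-0.074), the siBach1 day change of Gdf11 (-0.034), Nodal (-0.034) and Fstl3 (0.13), the siControl one of Fstl3 (0.091) and its change between days (0.035). Under normexp they were Nodal at day 2 (-0.034), Acvr1b A_55_P2123957 at day 2 (-0.075) and between days (-0.28), Fst between days (-0.10), Gdf11 with siBach1 (-0.024) and Inhba with siControl (-0.0039). On the slide of replicates 1 and 2 they were Inhbb at day 0 (-0.0099), Nodal at day 2 (-0.0074) and, between days, Fstl3 (0.084) and Acvr1b A_55_P2123957 (-0.13).

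Of the 11 tested member probes 1 was called with silencing at day 0. There were 4 with the replicate block (27.5% of all probes), 4 with the slide as a block (28%) and 3 on the slide of replicates 1 and 2 (14%). The count was 0 with only the day 0 groups (12.5%). By the methods' t-test it was 0 once adjusted by Benjamini-Hochberg (10.5%) and 2 unadjusted (28.2%). With single arrays left out it was 0 to 3. With 1 probe per gene it was 0 (22.8%), but that fit kept only each gene's brightest probe and so left out the called Acvr2a probe. At day 2 there were 2; normexp gave 1 (11.7%), no filter 0 of these 11 (2.31%), the replicate block 5 (21.3%), the slide as a block 5 (21.8%), only the day 2 groups 1 (6.99%), the t-test 1 adjusted (3.7%) and 4 unadjusted (24.2%), and single arrays left out at least 1. For the siBach1 day change there were 3; the replicate block gave 5 (64%), the slide as a block 6 (64.2%), the slide of replicates 1 and 2 gave 5 (60%), and single arrays left out at most 5. For the difference between days there were 0, and 1 with either block (13% and 13.7%). Some calls in these counts were of Acvr1b A_55_P2123957, which entered the test through siBach1 at day 2 alone. It was the adjusted t-test call at day 2 (adjusted p = 0.0415). In limma it was among the day 0 calls on the slide of replicates 1 and 2 (0.0437) and without siBach1 day 0 replicate 3 (0.0260). It was also among those of the siBach1 day change with the slide as a block (0.0448). Of the 3 dim probes that the filter had left out, Mstn passed without it for silencing at day 2 (adjusted p = 0.0374) and for the siBach1 day change (0.00538), and Acvr2a A_52_P11800 for the siControl day change (0.0241). Pathway probes called numbered 8 at day 0 (no filter 2, replicate block 14, slide block 14), 8 at day 2 (no filter 1, replicate block 13) and 2 between days (normexp 4, no filter 0, replicate block 5, slide block 5). The replicate block changed no call of a member other than those given with the results.

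Without the filter 56605 probes were tested, and the median of all probes for the siControl day change moved from 0.00 to 0.11. The causes of the other changes were not tested. Signal over background limits Mstn, Nodal and the dim probes of Acvr2a, Acvr2b and Acvr1b.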

Other observations

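For the 3 members with the widest range of group means, the genes with the most similar levels over the 12 arrays were sought among 13550 genes that were well above background on all of them, with 1 probe per gene. For Fst they were the muscle transcription factor gene Mef2c (Pearson r = 0.996), Mapt (0.996) and Tob1 (0.995), and 611 genes had an r above 0.95. For Inhbb they were Rassf2 (0.995), Sobp (0.992) and the prion protein gene Prnp (0.990), with 440 genes above 0.95. For Acvr2a (A_55_P2503785) they were Zfp580 (0.98), Gm20492 (0.969) and Magef1 (0.966), with 22 genes above 0.95. The 12 arrays fall into 4 conditions and share their scaling, so these are descriptions.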
